A study of Mus musculus with 2 samples.

Results

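The genes described here encode the enzymes and carriers of glycolysis and of the pentose phosphate pathway. They form a list of 38 genes chosen by name, from the glucose carriers of the plasma membrane to lactate export, together with the kinases that hold back pyruvate dehydrogenase and 7 enzymes of the pentose phosphate pathway. All 38 were found among the 20250 named protein-coding genes of the RNA-seq data, represented by 62 RefSeq transcripts. RNA-seq was made from 1 library of *Ebf1* -/- pre-pro-B cells and 1 library of *Rag2* -/- pro-B cells, both labelled C57BL/6. *Ebf1* encodes a transcription factor required for B lineage commitment, and *Rag2* encodes part of the recombinase that rearranges immunoglobulin genes, so that cells lacking either are held at the named stage. Both cultures grew on OP-9 stromal cells, in the same medium and with 5 ng/mL interleukin 7 (Il-7), and the pre-pro-B culture also received 10 ng/mL Scf and 10 ng/mL Flt3l. The *Ebf1* null cells came from female fetal liver and the *Rag2* null cells from adult male bone marrow. Stage, genotype, cytokines, sex, age and tissue of origin therefore cannot be told apart, and with 1 library per cell type no difference has a replicate check.

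Glycolysis splits glucose into pyruvate in the cytosol, with a small gain of ATP, and lactate dehydrogenase turns the pyruvate into lactate when it is not passed to the mitochondria. The pentose phosphate pathway branches off after glucose has been phosphorylated, yielding NADPH in its oxidative arm and the ribose of nucleotides in its other arm. Proliferating lymphoid progenitors are known to rely on both, and many of the steps are served by several isozymes with different tissue distributions.

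Values are FPKM, read counts scaled to transcript length and to the size of the library, which the authors estimated with Cuffdiff for each RefSeq transcript. Here they were summed over the transcripts of a gene. A gene was counted as higher or lower when it reached 1 FPKM in either library and (pro-B FPKM + 1) / (pre-pro-B FPKM + 1) reached 2-fold, and all log2 ratios are on that scale unless stated. Where values are given in pairs, the pre-pro-B library comes before the pro-B library. The added 1 understates the difference of genes with low FPKM. The libraries were read to about 90000000 single-end reads of 97 bases each. The FPKM came without counts, so the only error used here is the 95% interval from the Cuffdiff model that was deposited with each transcript. These intervals have flaws. Of the transcripts with Cuffdiff status OK, the FPKM lay outside its own limits for 691 of 30136 in the pre-pro-B library. In the pro-B library this held for 737 of 30131. The marker genes followed the labels, in FPKM summed over each list. The 8 B lineage genes summed to 70.8 in the pre-pro-B library and 2320 in the pro-B library. Most of this pre-pro-B sum came from the targeted gene *Ebf1* (64.0), and the others on the list had 0.200 to 1.83 there. The 3 progenitor genes *Kit*, *Flt3* and *Cd34* summed to 944 and 2.82. The targeted genes were not at 0 in their own null cells (*Ebf1* 64.0 in the pre-pro-B and 273 in the pro-B library, *Rag2* 34.5 and 22.9), and an FPKM over the whole transcript does not show which part of a gene was read.

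Of the 38 genes, 32 reached an FPKM of 1 in a library. Between the cell types, 6 of these 32 (18.8%) were higher in the pro-B library, namely *Slc16a1*, *Slc16a3*, *Pfkp*, *Pfkfb3*, *Rpia* and *Ldha*, against 12.2% of all 10528 genes tested in the same way. The 7 lower genes (21.9%, against 19.1% of all genes) were *Slc2a3*, *Slc2a6*, *Hk2*, *Pfkfb4*, *Eno3*, *Pdk2* and *Pgd*. These shares lie near the background, and the remaining 19 genes stayed within 2-fold. The median log2 ratio was 0.01, with the middle of the genes (lower to upper quartile) between -0.86 and 0.83, beside a median of -0.14 and quartiles of -0.74 and 0.42 over all genes. The 95% order-statistic interval of the median over these genes ran from -0.62 to 0.54. It takes the listed genes as independent draws and holds no error between libraries, so it is no interval for the cell type difference. The largest differences lay in single carriers and isozymes. In bulk RNA, fewer cells expressing a gene and less RNA per cell cannot be told apart.

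**Figure D1:**
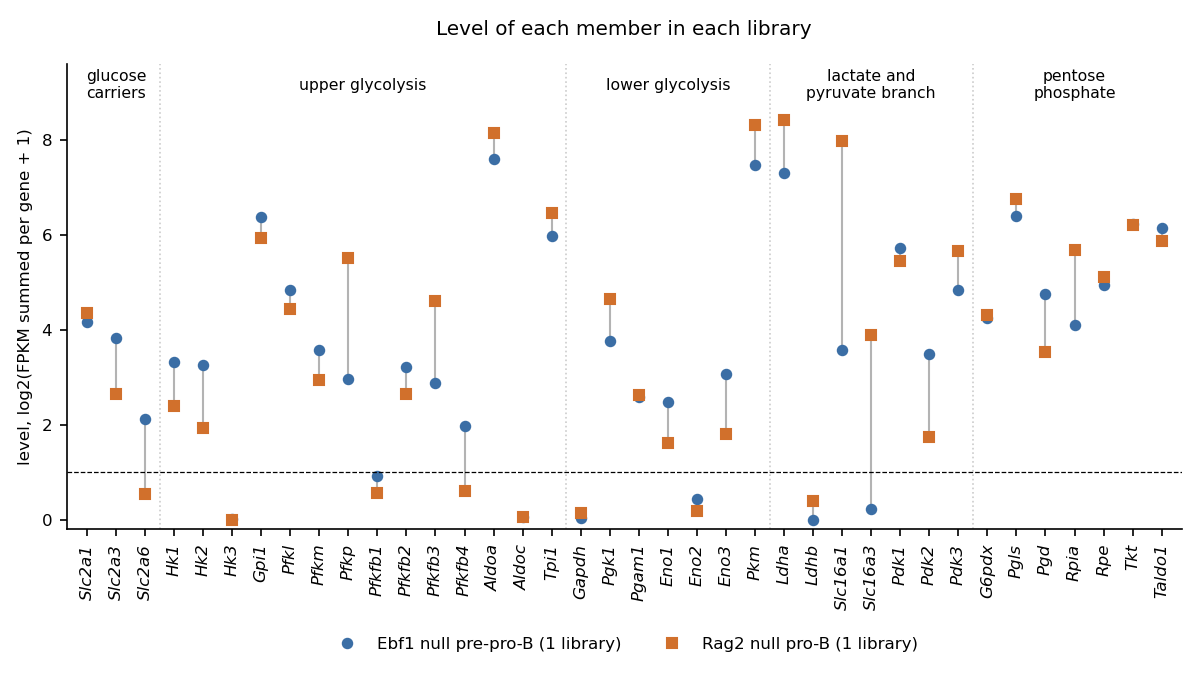
Level of the 38 genes in each library, as log2(FPKM summed per gene + 1), in the order of the pathway, with circles for pre-pro-B and squares for pro-B cells and a dashed line at an FPKM of 1. *Slc16a1* and *Slc16a3* have the longest connecting lines, and *Aldoa*, *Pkm* and *Ldha* are the highest genes in both libraries.

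Summed over groups of steps, FPKM gave larger ratios from glucose uptake to lactate, and the medians over single genes rose in the same order. In upper glycolysis the sum was higher in the pro-B library, whereas the median log2 ratio was negative. The 3 glucose carriers summed to an FPKM of 33.3 in the pre-pro-B and 25.0 in the pro-B library (0.751-fold). The 14 genes of upper glycolysis, from the hexokinases to triose phosphate isomerase, summed to 418 and 535 (1.28-fold), and the 7 genes of lower glycolysis to 205 and 350 (1.71-fold). The sums of the 7 genes of the lactate and pyruvate branch, 256 and 697, differed most (2.72-fold), and those of the 7 pentose phosphate enzymes least (315 and 350, 1.11-fold). Such sums weigh the abundant genes most, and *Ldha* and *Slc16a1* made up most of the branch in the pro-B library. In lower glycolysis the values of *Gapdh*, *Pgk1*, *Pgam1* and *Eno1* are uncertain, because of sequence shared with other loci (described below). *Ldha* shares part of its sequence with other loci as well. The median log2 ratio was -1.16 for the carriers (2 of 3 lower), -0.45 for the 11 tested genes of upper glycolysis (2 higher, 2 lower) and 0.03 for the 5 of lower glycolysis (1 lower), where *Pkm*, itself within 2-fold, carried the sum. It was 0.97 for the 6 tested genes of the lactate and pyruvate branch (3 higher, 1 lower) and 0.07 for the 7 pentose phosphate enzymes (1 higher, 1 lower).

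*Slc16a1* encodes the monocarboxylate carrier MCT1, which moves lactate and pyruvate with a proton across the plasma membrane. The gene lies on the forward strand of chromosome 3 of mm9 (104442591 to 104462385). Its FPKM was 10.8 in the pre-pro-B library (interval 1.88 to 19.7) and 249 in the pro-B library (interval 48.9 to 448), a 23.0-fold difference and a log2 ratio of 4.40. It was the only 1 of the 32 genes whose intervals, taken for the most abundant transcript, did not overlap between the libraries, against 4.83% of all genes tested. Ordered by FPKM among the 10528 genes, *Slc16a1* stood at rank 5860 in the pre-pro-B library and at rank 159 in the pro-B library, beside the pathway's most abundant enzymes.

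*Slc16a3* encodes MCT4, the carrier best known for lactate export from strongly glycolytic cells (chromosome 11, 120809794 to 120822182, forward strand). Its summed FPKM was 0.164 in the pre-pro-B library and 13.9 in the pro-B library, a log2 ratio of 3.68, or 6.41 without the added 1. In pro-B cells this came from NM_001038654 (FPKM 8.71, interval 0.103 to 21.7) and NM_001038653 (FPKM 5.18, interval 0 to 15.2). The former had an FPKM of 0.164 (interval 0 to 0.526) in the pre-pro-B library, so its intervals overlapped at the lower end. *Slc16a1* held 98.5% of the summed FPKM of both carriers in the pre-pro-B library and 94.7% in the pro-B library. The related carrier *Slc16a7* (MCT2) was lower, with an FPKM of 6.08 and 0.0213. *Bsg*, the chaperone that brings MCT1 and MCT4 to the membrane, was abundant in both libraries (FPKM 102 and 79.4).

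*Ldha*, the lactate dehydrogenase subunit that favours lactate formation (chromosome 7, 54096845 to 54110997, forward strand), had a summed FPKM of 156 in the pre-pro-B library and 340 in the pro-B library, a log2 ratio of 1.12. Nearly all of it came from NM_010699, with an FPKM of 154 (interval 13.8 to 295) and 339 (interval 18.0 to 671). Nearly all of the pre-pro-B interval lay within the wider pro-B interval. *Ldha* ranked 250 in the pre-pro-B library and 102 in the pro-B library. *Ldhb*, the subunit of heart and other oxidative tissues, was listed at 0 in the pre-pro-B library and had an FPKM of 0.308 in the pro-B library. *Ldha* thus made up at least 99.9% of the summed FPKM of both subunits in each library.

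The promoters of *Slc16a1*, *Slc16a3* and *Ldha* are shown because these 3 genes were higher together at the lactate end of the pathway. They are taken from RefSeq on GRCm38.p6, a later build than that of the FPKM, and cover the 250 bases before an annotated start, 5′ to 3′. Where a gene had several annotated starts, a start whose window held CACGTG was chosen for display. *Ldha* and *Pdk2* each had a further start, whose window held neither CACGTG nor ACGTG. *Pdk2*, which was lower in the pro-B library, is set beside them. Capitals mark CACGTG, the E-box bound by Myc with Max, and ACGTG, the core of the hypoxia response element, which is contained in CACGTG. Both strands were searched, so that CACGT marks ACGTG on the other strand.
Slc16a1 (chr3:104638414-104638663, forward strand): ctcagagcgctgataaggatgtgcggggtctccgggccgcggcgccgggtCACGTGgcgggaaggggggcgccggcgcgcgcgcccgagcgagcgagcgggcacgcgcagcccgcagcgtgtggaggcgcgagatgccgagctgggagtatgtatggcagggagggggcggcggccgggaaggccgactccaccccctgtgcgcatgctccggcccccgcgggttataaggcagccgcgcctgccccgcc
Slc16a3 (chr11:120948817-120949066, forward strand): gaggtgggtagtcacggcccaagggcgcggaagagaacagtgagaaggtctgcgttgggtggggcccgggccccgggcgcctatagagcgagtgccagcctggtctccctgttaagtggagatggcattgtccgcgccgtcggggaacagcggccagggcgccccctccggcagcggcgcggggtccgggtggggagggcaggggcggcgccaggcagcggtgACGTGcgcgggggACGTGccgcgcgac
Ldha (chr7:46845554-46845803, forward strand): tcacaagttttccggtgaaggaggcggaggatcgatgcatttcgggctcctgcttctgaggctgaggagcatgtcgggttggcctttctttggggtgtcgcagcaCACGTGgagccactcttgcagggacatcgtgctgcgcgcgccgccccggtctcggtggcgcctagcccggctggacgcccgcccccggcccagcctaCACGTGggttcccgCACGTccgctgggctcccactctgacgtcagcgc
Pdk2 (chr11:95041372-95041621, reverse strand): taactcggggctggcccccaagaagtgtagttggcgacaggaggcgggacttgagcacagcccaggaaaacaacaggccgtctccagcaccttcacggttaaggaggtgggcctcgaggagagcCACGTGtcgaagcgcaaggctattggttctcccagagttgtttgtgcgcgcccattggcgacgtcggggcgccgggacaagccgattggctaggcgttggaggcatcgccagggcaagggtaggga

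In the windows shown, CACGTG stood at 2 places before *Ldha* and at 1 place each before *Slc16a1* and *Pdk2*. Outside that motif the shorter ACGTG stood at 2 places before *Slc16a3* and at 1 place, on the other strand, before *Ldha*. In the full windows of the table, from 250 bases before to 50 bases after a start, CACGTG was found for 6 of 37 pathway genes with a window (16.2%), which were *Pfkm*, *Pfkfb2*, *Pfkfb3*, *Ldha*, *Slc16a1* and *Pdk2*. Of all 27025 genes with a window 8.09% held it, and of the 8581 tested genes 12.2%. ACGTG stood in 19 of the 37 (51.4%), against 30.2% of the tested genes, and GCGTG, the other form of the hypoxia core, in 26 (70.3%, against 57.2%). Of the 6 genes higher in the pro-B library CACGTG stood in 3, and of the 6 lower genes with a window in 1. In all these counts a gene was included when any of its windows held the motif, so genes with several annotated starts had more chances of a match. *Pfkm*, *Pfkfb2*, *Pfkfb3*, *Ldha* and *Pdk2* also had windows without CACGTG, and which start was used in these cells was not tested. A match describes these letters alone, and *Slc2a3* was the pathway gene for which no window was matched.

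Glucose enters the cell through the facilitative carriers of the *Slc2a* family. *Slc2a1* (GLUT1), the carrier of most dividing cells, had an FPKM of 16.9 in the pre-pro-B library (interval 0.492 to 36.2) and 19.3 in the pro-B library (interval 1.14 to 42.7). *Slc2a3* (GLUT3), a carrier of high affinity, had 13.1 (interval 2.11 to 24.0) and 5.30 (interval 0.419 to 10.2), a log2 ratio of -1.16. *Slc2a6*, a carrier found in leukocytes, had 3.33 and 0.454. The share of *Slc2a1* in the summed FPKM of these carriers was thus 50.7% in the pre-pro-B library and 77.0% in the pro-B library.

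*Slc2a6* was the single gene, of 10 with several transcripts and an FPKM above 0 in both libraries, whose leading transcript differed between the libraries. Nearly all of its FPKM was given to NM_172659 in the pre-pro-B library and to NM_001177627 in the pro-B library. The total FPKM of the gene in the pro-B library was below 1, and how Cuffdiff divided so low a signal between overlapping transcripts was not tested.

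The hexokinases trap glucose in the cell by phosphorylation. *Hk1*, the widely expressed form, had an FPKM of 8.94 in the pre-pro-B library and 4.29 in the pro-B library, a log2 ratio of -0.91. *Hk2* (chromosome 6, 82675019 to 82724448, reverse strand), the inducible form of muscle and of many tumours, had 8.52 (interval 0.703 to 21.6) and 2.78 (interval 0.0287 to 7.64), a log2 ratio of -1.33. *Hk3*, a form of myeloid cells, was near 0 in both (0.0108, and listed at 0 in the pro-B library). Each form had the lower FPKM in the pro-B library, their sum was 17.5 and 7.07, and *Hk1* held 51.1% and 60.6% of it. *Gpi1*, the isomerase of the next step, was far more abundant and within 2-fold (FPKM 82.2 and 59.8).

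Phosphofructokinase commits the sugar to glycolysis and is built from the liver, muscle and platelet subunits of *Pfkl*, *Pfkm* and *Pfkp*. *Pfkp* (chromosome 13, 6579014 to 6648023, reverse strand) had an FPKM of 6.81 in the pre-pro-B library (interval 0 to 22.8) and 44.3 in the pro-B library (interval 0.595 to 99.0), a 6.50-fold difference and a log2 ratio of 2.54. *Pfkl* had 27.5 and 20.6, and *Pfkm* 10.8 and 6.70, both within 2-fold. By these estimates the leading subunit differed. The interval of *Pfkl* was 2.06 to 56.0 in the pre-pro-B library and 1.45 to 41.0 in the pro-B library. It overlapped that of *Pfkp* in each library, so the data do not resolve which subunit led. *Pfkl* held 60.9% of the summed FPKM of the subunits in the pre-pro-B library and 28.8% in the pro-B library, while *Pfkp* held 15.1% and 61.9%. The summed FPKM of all 3 subunits was 45.1 and 71.6.

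A comparable difference in make-up was seen in the *Pfkfb* genes, whose bifunctional enzymes make and break the sugar phosphate that activates phosphofructokinase. *Pfkfb3*, the form with the strongest kinase activity (chromosome 2, 11393057 to 11423728, reverse strand), had a summed FPKM of 6.36 in the pre-pro-B library and 23.5 in the pro-B library, a log2 ratio of 1.73. Of its 8 transcripts, NM_001177758 carried most of it, with an FPKM of 5.36 (interval 0.196 to 11.8) and 23.2 (interval 2.06 to 44.7), and the intervals overlapped. *Pfkfb2* had 8.26 and 5.24, within 2-fold. *Pfkfb4*, known as a hypoxia-inducible form, had 2.91 (interval 0.0470 to 8.23) and 0.514 (interval 0 to 1.82), a log2 ratio of -1.37, and *Pfkfb1*, the liver and muscle form, stayed below 1 in both. By these estimates *Pfkfb2* led the family in the pre-pro-B library with 44.9% of its FPKM, and *Pfkfb3* led it in the pro-B library with 79.0%. The intervals of their most abundant transcripts overlapped in each library, so the lead is not resolved.

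**Figure D2:**
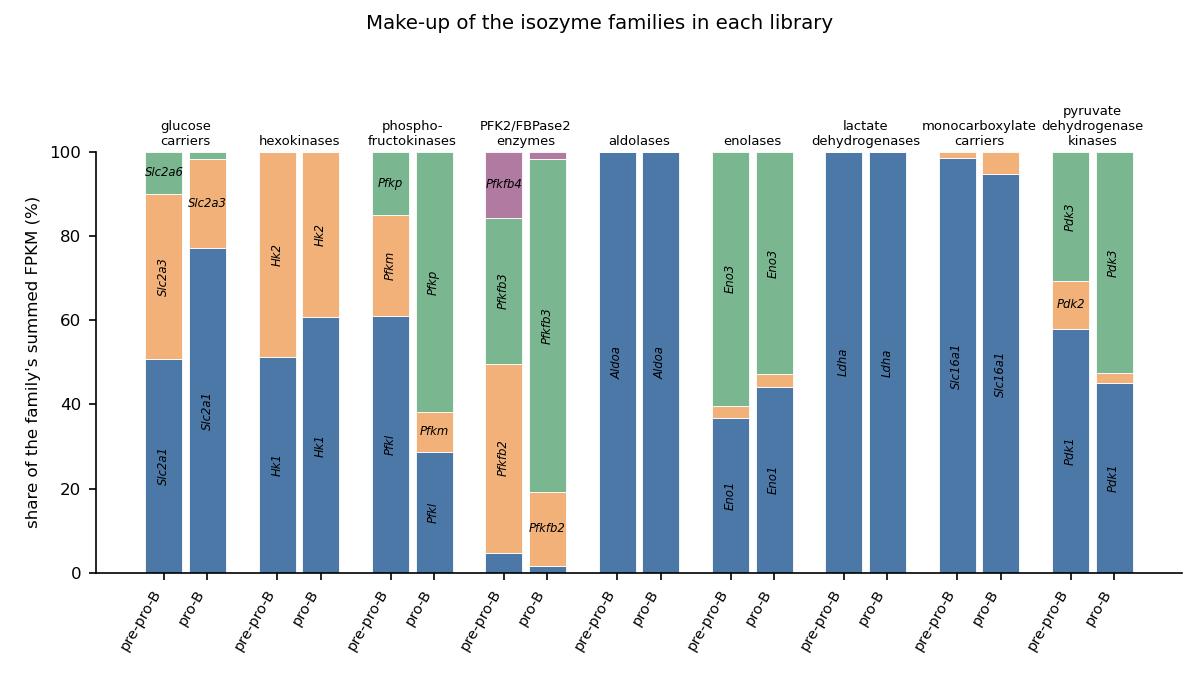
Share of each isozyme in the summed FPKM of its family, in percent, for 9 families, with a bar for each library and labels on shares of at least 8%. *Pfkp* takes 15.1% of its family in the pre-pro-B and 61.9% in the pro-B library, and *Pfkfb3* 34.5% and 79.0%, whereas *Aldoa* and *Ldha* fill their families in both.

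Among the enzymes that work on the split sugar, *Aldoa*, the aldolase of most tissues, had a summed FPKM of 193 in the pre-pro-B library and 281 in the pro-B library, a log2 ratio of 0.54, and the brain form *Aldoc* was near 0 (0.0318 and 0.0372). *Tpi1*, triose phosphate isomerase, had 61.8 and 86.8. *Pgk1*, the kinase of the ATP-forming step that follows, had 12.6 and 23.9, and *Pgam1*, the mutase after it, 5.00 and 5.13. These 4 genes stayed within 2-fold. *Gapdh*, which is among the most abundant mRNAs of most cells, was listed at only 0.0273 in the pre-pro-B library (interval 0 to 0.0962) and 0.0991 in the pro-B library (interval 0 to 0.353).

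The enolases also had low FPKM. *Eno1*, the enolase of most tissues, had 4.53 (interval 0 to 17.5) and 2.08 (interval 0 to 9.28), a log2 ratio of -0.85. *Eno3*, the muscle form, had 7.42 and 2.49 summed over 3 transcripts, a log2 ratio of -1.27, and *Eno2*, the neuronal form, stayed below 1 in both. Taken at face value, *Eno3* would hold 60.4% and 52.9% of the enolase FPKM and exceed *Eno1*. The values of *Gapdh*, *Eno1*, *Pgam1* and *Pgk1* are uncertain, because much or all of their sequence also occurs elsewhere in the genome.

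Several glycolytic genes are known to have many processed pseudogenes, intronless copies of their mRNA elsewhere in the genome, whose reads Cuffdiff divides among all places of alignment. The coding sequence of each gene was therefore cut into overlapping stretches of 32 bases, and exact matches were searched in mm9 outside the gene. Loci that matched at least 10% of the stretches, counted as copies, were found for 12 of the 38 genes. *Gapdh* had 123 such copies, and each of its 971 stretches occurred elsewhere. All stretches of *Pgk1* and *Pgam1* also occurred elsewhere (4 copies each), as did 89.2% of those of *Eno1* (4 copies). These 4 genes had lower FPKM than *Tpi1*, *Aldoa* and *Pkm*, which work in the same chain of steps.

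A partial overlap went with high FPKM as well. *Pkm* had 66.2% of its stretches elsewhere (4 copies), *Ldha* 58.4% (8 copies), *Aldoa* 41.5% (2 copies), *Gpi1* 49.3% (1 copy) and *Tpi1* 30.6% (2 copies). *Ldhb* had 53.2% (1 copy), *Taldo1* 29.7% (1 copy) and *G6pdx* 18.5% (1 copy). The number of reads lost to copies was not tested, and levels of these 12 genes, *Ldha* included, are less certain than those of the 26 others. Among the 22 tested genes without copies, 5 (22.7%) were higher and 7 (31.8%) lower in the pro-B library, beside 12.2% and 19.1% of all genes tested, with a median log2 ratio of -0.34 against -0.14 over all genes. Copies were searched for the listed pathway genes alone, so the values over all genes include genes with copies. The shares and the median of these 22 genes are therefore not set against a like set. *Slc16a1*, *Slc16a3*, *Pfkp*, *Pfkfb3* and *Rpia*, and all 7 lower genes, had no copies.

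**Figure D3:**
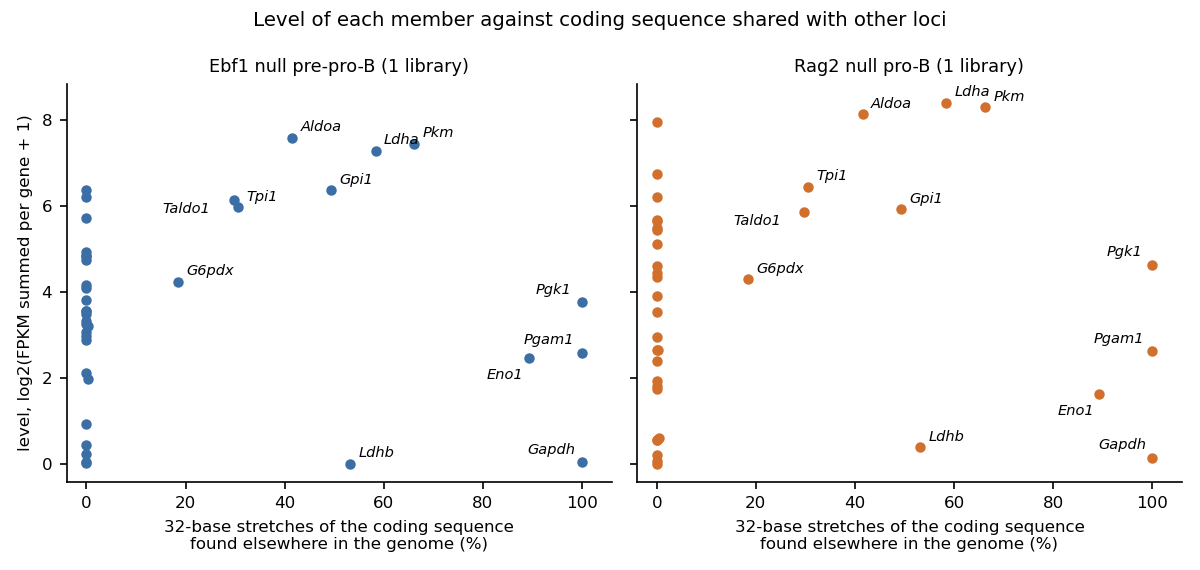
Level of each gene, as log2(FPKM summed per gene + 1), against the percent of its 32-base coding stretches that occur elsewhere in mm9, in the pre-pro-B library (left) and the pro-B library (right), with names for the 12 genes that have copies. *Gapdh*, *Pgk1*, *Pgam1* and *Eno1* lie at the right with low to middle levels, and *Aldoa*, *Ldha* and *Pkm* lie highest with 41.5% to 66.2% of their stretches elsewhere.

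*Pkm* encodes pyruvate kinase, the last step of glycolysis (chromosome 9, 59504383 to 59527182, forward strand). Its summed FPKM was 175 in the pre-pro-B library and 317 in the pro-B library, a log2 ratio of 0.85, within 2-fold, and it ranked 209 and 115 among all genes tested. Splicing includes either exon 9, which makes the constitutively active M1 form, or exon 10, which makes the M2 form typical of dividing cells. Both exons are shown because the split of the FPKM between the forms rests on them alone. They are read from mm9, 5′ to 3′ on the forward strand, each of 167 bases, with capitals at the 64 positions at which they differ.
Exon 9 (chr9:59522836-59523002): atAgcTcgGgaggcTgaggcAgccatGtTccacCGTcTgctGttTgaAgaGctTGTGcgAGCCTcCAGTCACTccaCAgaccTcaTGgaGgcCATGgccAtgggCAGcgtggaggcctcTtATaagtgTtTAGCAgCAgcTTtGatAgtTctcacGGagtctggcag
Exon 10 (chr9:59523375-59523541): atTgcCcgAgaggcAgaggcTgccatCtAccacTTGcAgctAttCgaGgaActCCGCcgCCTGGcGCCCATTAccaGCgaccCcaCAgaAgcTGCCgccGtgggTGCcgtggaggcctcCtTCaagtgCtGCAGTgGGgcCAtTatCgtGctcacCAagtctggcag

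The exons are identical at 103 of 167 positions (61.7%), and the transcripts that carry them are each 2432 bases long. The M2 transcript NM_011099 had an FPKM of 76.9 (interval 0.278 to 190) in the pre-pro-B library and 124 (interval 0.125 to 342) in the pro-B library. The M1 transcript NM_001253883 had 97.8 (interval 1.34 to 227) and 193 (interval 1.31 to 454). By these estimates M1 took 56.0% of the gene in the pre-pro-B library and 60.9% in the pro-B library. The intervals of both forms overlapped over most of their length in each library, so the data do not resolve which form was more abundant.

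Pyruvate is kept out of the mitochondrial citrate cycle by the pyruvate dehydrogenase kinases, which switch off pyruvate dehydrogenase. *Pdk1*, a known target of the hypoxia factor Hif1a, had an FPKM of 51.6 (interval 12.3 to 90.9) in the pre-pro-B library and 42.4 (interval 9.96 to 74.6) in the pro-B library. *Pdk3* had 27.4 (interval 4.54 to 50.3) and 49.4 (interval 10.7 to 88.1), a log2 ratio of 0.83. *Pdk2* (chromosome 11, 94887572 to 94902668, reverse strand), a widely expressed form, had 10.2 (interval 0.384 to 25.1) and 2.33 (interval 0 to 7.32). Its log2 ratio of -1.75 was the lowest of the 32 genes with the added 1, whereas without it *Slc2a6* (-2.88) and *Pfkfb4* (-2.50) lay below *Pdk2* (-2.13). The summed FPKM of the kinases hardly differed, at 89.2 and 94.1. By these estimates *Pdk1* led in the pre-pro-B library (57.8%) and *Pdk3* in the pro-B library (52.5%), but their intervals overlapped in each library.

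In the pentose phosphate pathway the oxidative arm starts with *G6pdx*, the dehydrogenase that sets its rate, at an FPKM of 17.9 in the pre-pro-B library and 18.8 in the pro-B library. *Pgls*, the lactonase of the next step, had 82.6 (interval 14.4 to 150) and 107 (interval 20.2 to 195). *Pgd* (chromosome 4, 148524100 to 148540880, reverse strand), the dehydrogenase that yields the second NADPH and releases carbon dioxide, had 25.7 (interval 1.58 to 52.0) and 10.5 (interval 0.284 to 22.2), a log2 ratio of -1.22. Of the oxidative arm, therefore, only *Pgd* passed 2-fold, and downwards.

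The other arm interconverts the sugar phosphates. *Rpia* (chromosome 6, 70715714 to 70742226, reverse strand), the isomerase that makes the ribose phosphate used for nucleotides, had an FPKM of 16.2 in the pre-pro-B library (interval 0.535 to 39.5) and 50.1 in the pro-B library (interval 3.88 to 110), a 3.09-fold difference and a log2 ratio of 1.57. *Rpe*, the epimerase acting on the same substrate, had 29.7 and 33.6. *Tkt* (73.3 and 72.8) and *Taldo1* (69.5 and 57.0), which return carbon to glycolysis, were among the steadier genes, and *Tkt* had the log2 ratio closest to 0 (-0.01). The intervals of *Rpia* overlapped.

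**Figure D4:**
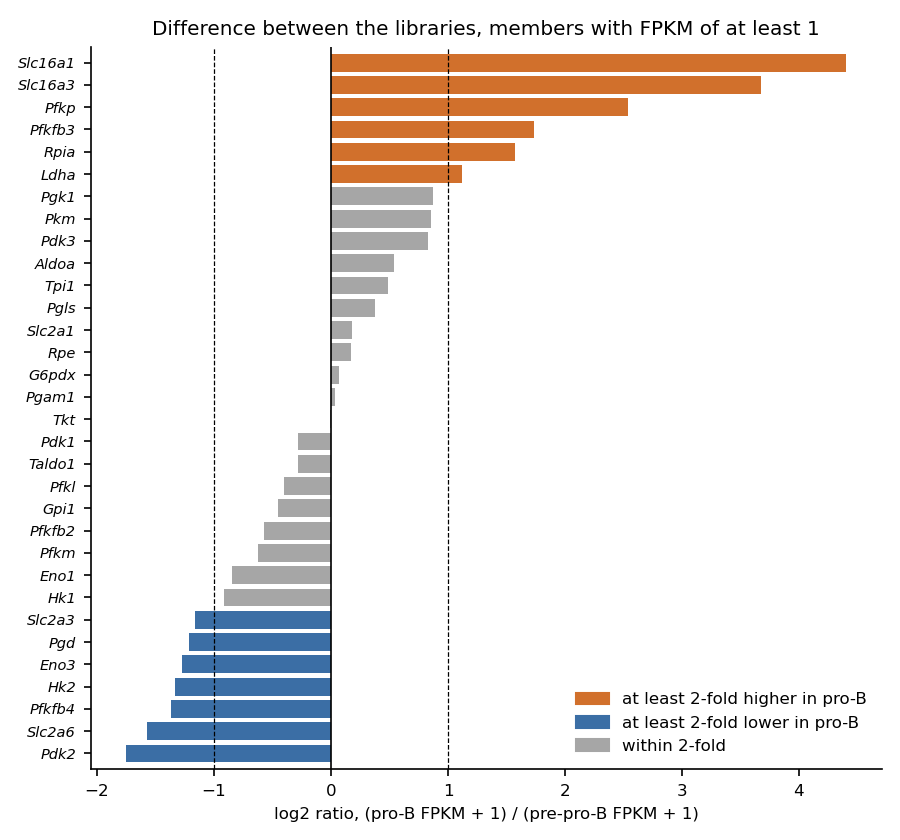
Log2 ratio of (pro-B FPKM + 1) to (pre-pro-B FPKM + 1) for the 32 genes that reached 1 FPKM in either library, in order of size, with dashed lines at 2-fold. The 6 higher genes range up to 4.40 for *Slc16a1*, and the 7 lower genes down to -1.75 for *Pdk2*.

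**Figure D5:**
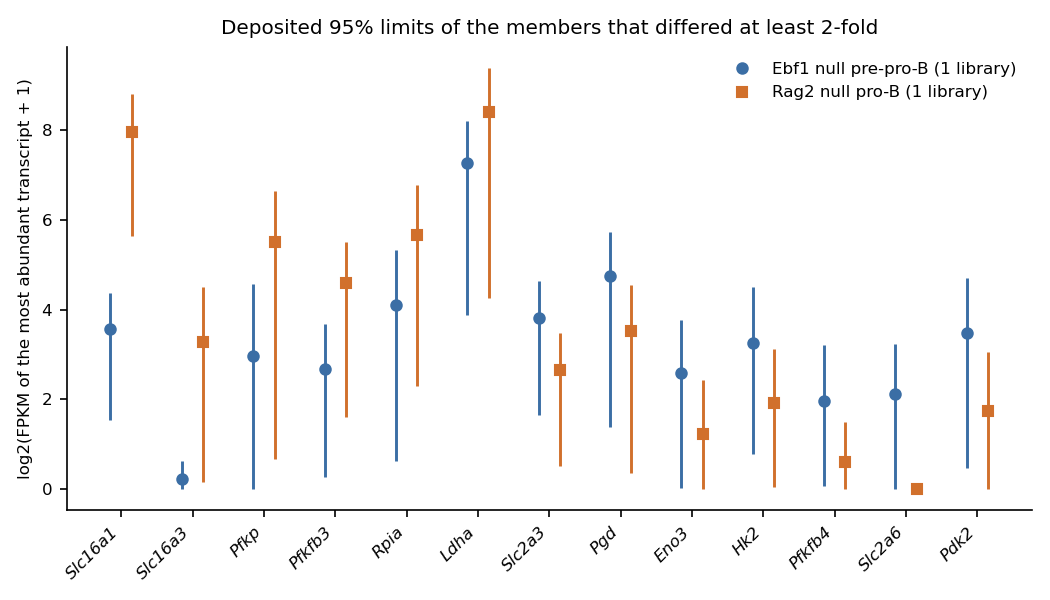
FPKM of the most abundant transcript of the 13 genes past 2-fold, as log2(FPKM + 1), with vertical lines for the 95% limits deposited by the authors, and the libraries side by side. The limits of the libraries are apart for *Slc16a1* alone, and in the pro-B library those of this *Slc2a6* transcript are at 0.

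Further genes of these pathways were examined as a list of 60, which held other isozymes, the pyruvate dehydrogenase complex, gluconeogenic enzymes and regulators of glycolysis. An FPKM of 1 was reached by 38 of them, of which 2 were higher and 9 lower in the pro-B library, beside 12.2% and 19.1% of all genes tested, with a median log2 ratio of -0.23 against -0.14 over all genes. The higher ones were *Slc2a9*, a urate carrier of the glucose carrier family (2.45 and 6.12), and *Fbp1*, the bisphosphatase that opposes phosphofructokinase (0.108 and 2.94). The lower enzymes and carriers included *Adpgk* (11.8 and 4.95), *Pgam2* (2.17 and 0.558), *Slc16a7*, *Gpd1* (2.38 and 0.0255) and *H6pd*, the dehydrogenase of the endoplasmic reticulum (16.8 and 2.36). Isozymes of liver, muscle and testis such as *Pklr*, *Fbp2*, *Ldhc* and *Pck1* were listed at 0 in both libraries.

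The regulators on the list mostly stayed within 2-fold. *Hif1a* had an FPKM of 76.2 in the pre-pro-B library and 58.8 in the pro-B library, and *Txnip*, which restrains glucose uptake, 288 and 205. The lower ones were *Myc* (19.0 and 5.88), *Mycn* (57.7 and 4.68) and *Egln3*, an oxygen sensor that marks Hif1a for decay (13.8 and 0.460). Of the pyruvate dehydrogenase complex, *Pdha1* (129 and 143), *Pdhb* (45.1 and 36.8), *Dlat* (11.5 and 10.4) and *Dld* (73.7 and 78.5) were all within 2-fold, as were the mitochondrial pyruvate carriers *Mpc1* (3.55 and 1.53) and *Mpc2* (37.7 and 57.2).

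Genes of other cell types and of the cell cycle also differed between the libraries. The 6 proliferation genes, such as *Mki67* and *Top2a*, were all higher in the pro-B library and summed to an FPKM of 302 in the pre-pro-B and 1295 in the pro-B library. The 10 myeloid genes summed to 743 and 10.7, in the pre-pro-B library mostly from *Tyrobp* and *Fcgr3* and in the pro-B library mostly from *Itgam* (6.40). *Elane* was listed at 0 in both. The 5 T lineage genes summed to 38.8 and 0.137, in the pre-pro-B library mostly from *Cd3g* (36.8). The 10 stromal genes summed to 20.1 and 16.9, with 3 stromal genes higher and 1 lower in the pro-B library. The lower one, *Pdgfrb* (15.9 and 0.377), gave most of the pre-pro-B sum, and the higher ones were *Col1a2*, *Fn1* and *Cxcl12*. An FPKM of 1 was reached by 3 stromal genes in the pre-pro-B library and by 6 in the pro-B library. The 4 mast cell and basophil genes summed to 10.5 and 0.0296, and the 4 erythroid genes measured stayed below 1 in both. The part of any of these in the glycolytic differences was not tested.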

How the data were processed

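RNA-seq was measured in 1 library of *Ebf1* -/- pre-pro-B cells and 1 of *Rag2* -/- pro-B cells, made from rRNA-depleted RNA with a strand-specific kit. The authors trimmed the reads, aligned them to mm9 with TopHat (1.5 in the submitters' processing notes, another version in the study's parameter list) and deposited FPKM per RefSeq transcript with 95% limits from Cuffdiff 2.1.1, which corrected for multi-reads and fragment bias and did not scale the libraries to each other. Reads shared between copies or transcripts are divided by a model, which can lower or shift single values. A further table of the authors' own fold changes, p-values and q-values was not used.

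Of 30485 transcripts, 26968 were protein-coding and 26555 were given a gene name through a RefSeq table of GRCm38.p6, used for names and promoters only. FPKM were summed per gene. Gene coordinates and coding sequences are those of GENCODE M1 on mm9, the build of the FPKM. With 1 library per group no test was possible, and counts past 2-fold are descriptions of these libraries. The genes named were all members, the further pathway genes past 2-fold, and markers by their sums. Single values of some further pathway genes are not reported here. The members and lists were chosen with earlier results of these data known. The scripts were tested on simulated data. Identity between isozyme proteins was planned and not computed. Scripts ran under Python 3.11.15, with tables handled in pandas 2.3.3 and numpy 2.4.6, the interval of the median taken with scipy 1.17.1 and figures drawn in matplotlib 3.10.9.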

Additional observations from a re-analysis of the deposited data

How the results depend on the processing

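The counts of 6 higher and 7 lower genes were recomputed with other pseudocounts, filters, scalings and ways of summing. Over these alternatives the higher genes numbered 5 to 7, of 22 to 38 genes counted. With no filter on low values, 15.8% of 38 were higher and 18.4% lower, against 6.34% and 9.94% of all genes. Without a pseudocount, the shares were 19.4% and 27.8% of 36, against 17.2% and 22.1%. An FPKM of 1 required in both libraries gave 17.2% and 17.2% of 29, against 10.4% and 11.3%. An FPKM of 10 in a library gave 25% and 12.5% of 24, against 13.1% and 15%. The lower genes numbered 3 when an FPKM of 10 in a library was required, since *Eno3*, *Hk2*, *Pfkfb4* and *Slc2a6* then dropped out, and between 5 and 10 otherwise. *Hk1* and *Eno1* passed 2-fold with a pseudocount of 0.1 (log2 ratios -1.04 and -1.09) or with none. Over all genes, higher ones numbered 1284 of 10528 (12.2%) at the main setting. Without a pseudocount they numbered 2074 of 12076 (17.2%), where the filter was also changed to an FPKM above 0 in both libraries. Lower ones numbered 2013 of 10528 (19.1%) at the main setting. They numbered 998 of 8852 (11.3%) with an FPKM of 1 required in both libraries, and 1016 of 6793 (15%) with an FPKM of 10 in a library. Scaling by the median ratio shifted log2 ratios by 0.12 and scaling to TPM by -0.09, and neither changed which of the 32 genes passed 2-fold. With the most abundant transcript in place of the sum, the share of *Pfkfb3* in its family in pro-B cells was 84.5%, and that of *Eno3* among enolases was 50.6% in pre-pro-B and 37.4% in pro-B cells, so that *Eno1* then led in pro-B cells. Leaving out genes with copies, an alternative chosen after seeing the data, removed *Ldha* from the higher genes. No paired analysis was possible because each cell type has 1 library, and none could be left out.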
